A study of Mus musculus with 3 samples.

Results

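The genes described here are the cytosolic ribosomal protein genes of the mouse, measured in single cells of 3 pancreatic tumours. They were chosen by symbol alone (Rps or Rpl followed by a digit, plus Rpsa, Rplp0, Rplp1 and Rplp2, without pseudogene symbols that carry -ps and without the Rps6k kinases), which gave 86 of the 31053 genes in the deposited tables. Of these, 31 encode core proteins of the small subunit, 46 encode core proteins of the large subunit, and 9 are paralogues or other genes with a similar name. Each tumour came from 1 transplant and gave 1 library. Per the labels, donor mice carried Msi2-Myc and R26-LSL-tdTomato, where the series title gives the Myc allele as Musashi2-CreER-MycT58A. As background, CreER in this allele is driven from the Msi2 gene and acts when tamoxifen is given. Recombination is therefore limited to cells in which that gene is active at that time. MYC and tdTomato from these alleles are limited to those cells and their descendants. Sorted tdTomato+ epithelial cells taken 5 weeks after tamoxifen were placed into the pancreas of NSG mice, which lack functional lymphocytes, and EpCAM+ cells of the end-stage tumours were sequenced. All 3 tumours carry the same genotype and treatment labels, so they form 1 group of 3, and no normal or untreated pancreas was analysed here. ASCP, PDAC and ACC are the tumour types in the title of the series, without a label that ties one to a sample.

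A ribosome joins a small subunit, which reads the messenger RNA, to a large subunit, which makes the peptide bond. Ribosomal proteins are needed in matched amounts, and cells balance their supply mainly by translating or storing ribosomal protein mRNAs together. These mRNAs typically start with a stretch of pyrimidines at the 5′ end, the terminal oligopyrimidine (TOP) tract, through which the growth-controlling kinase mTOR acts by way of LARP1. MYC is a known driver of ribosome production, and acinar cells of the pancreas, which secrete digestive enzymes, are among the most active protein makers of the body.

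Windows around annotated starts are printed to show pyrimidine runs near the start, for 6 members with a single start in the RefSeq table that are among the 10 most abundant members or the paralogues. Each line gives 40 bases before and 20 bases after the start, 5′ to 3′ on the strand of the gene, in build GRCm38.p6. Capitals mark the longest unbroken run of C and T that touches the 10 bases before to the 20 bases after the start.
Rpl13: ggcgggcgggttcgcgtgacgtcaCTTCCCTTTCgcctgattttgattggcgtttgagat
Rpl41: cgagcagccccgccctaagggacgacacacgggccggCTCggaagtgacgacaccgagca
Rps12: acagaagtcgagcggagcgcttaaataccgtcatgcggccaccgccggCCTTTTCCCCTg
Rps2: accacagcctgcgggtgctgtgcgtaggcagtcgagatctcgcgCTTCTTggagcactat
Rpl22l1: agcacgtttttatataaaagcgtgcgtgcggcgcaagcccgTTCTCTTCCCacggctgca
Rpl7l1: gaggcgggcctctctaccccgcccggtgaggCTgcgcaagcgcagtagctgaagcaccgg
These windows lie at chr8:123102310-123102369 (plus strand) for Rpl13, chr10:128549149-128549208 (minus) for Rpl41, chr10:23787190-23787249 (minus) for Rps12, chr17:24720023-24720082 (plus) for Rps2, chr3:28805468-28805527 (plus) for Rpl22l1 and chr17:46782637-46782696 (minus) for Rpl7l1. The runs of Rpl13 and Rpl22l1 were 10 bases long, that of Rps12 was 11 and that of Rps2 was 6, while those of Rpl41 and Rpl7l1, at 3 and 2, were short at the listed start. Counted from the start, the runs of Rpl13, Rpl41 and Rpl7l1 began at -16, -3 and -9 and ended before it. Those of Rpl22l1, Rps2 and Rps12 began at base 2, 5 and 9 after it. The other members that met the same conditions were Rpl23 with 6 and Rpl36al with 5, and Rps27rt with 7. The RefSeq table matched 66 of the 86 members. Over the 67 starts of core members, 62.7% had a run of 6 or more, against 36.3% of the 32851 starts in the whole table. A run counted in this way may end before the start or begin after it, so the measure does not count TOP tracts. The letters CCGGAAG, the core of ETS factor motifs, occurred on either strand of the 300-base window in 37.3% of core starts and 8.86% of all. AAGATGGC, the core of the YY1 motif, occurred in 10.4% and 2.75%, and TATAAA, the TATA box, in 8.96% and 13.6%. CCGGAAG and AAGATGGC can overlap by the letters AAG, and a match is not a measured site.

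A second pair shows why counts for one member are uncertain. Rps27rt is a gene with 1 exon on chromosome 9 whose coding sequence was identical (100%) to that of Rps27, a small-subunit protein with a zinc finger, over all 252 bases. The longest stretch that both transcripts share was 341 bases. Their start windows, 40 bases before to 30 after, differ upstream and then run together. Capitals mark the shared stretch within the window.
Rps27: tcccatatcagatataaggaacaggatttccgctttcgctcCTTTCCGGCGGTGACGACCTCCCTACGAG
Rps27rt: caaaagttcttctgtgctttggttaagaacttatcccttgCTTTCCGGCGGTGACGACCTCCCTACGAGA
They lie at chr3:90213619-90213688 and chr9:114982710-114982779, both on the minus strand. Rps27 was named for this comparison after its values were seen. Rps27rt was counted at 212, 362 and 302 CPM in tumours 1, 2 and 3 (CPM, the UMIs of a gene per 1000000 UMIs of the cells summed), and Rps27 at 2617, 2448 and 2326. Given the shared sequence, the split between both genes is uncertain.

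Facts about the libraries touch every value that follows. A barcode was kept as a cell if it had at least 1000 UMIs and 500 genes, no more than 20% mitochondrial UMIs, and if its own library held at least 60% of the UMIs that the 3 libraries gave that barcode. This left 1431, 253 and 2804 cells with 3157564, 546217 and 7586782 UMIs in tumours 1, 2 and 3. Barcodes were shared: all 1877, 641 and 3494 barcodes with 1000 or more UMIs also had 10 or more in another library, and the 60% filter removed 7.86%, 50.5% and 0.989% of barcodes. A list of 4 genes (Gm42418, AY036118, Gm26917 and Lars2) is called the ribosomal RNA locus here, although Lars2 is a protein-coding gene outside it. Many kept barcodes were rich in RNA of this list (10% or more of their UMIs): 420, 50 and 1598 cells. Of these, the median mitochondrial share was 0.451%, 0.355% and 0.288%, against 3.02%, 3.49% and 3.45% in the other cells. Markers matched the epithelial label: Epcam stood at 530, 756 and 580 CPM, and lists for fibroblast, endothelial, myeloid, lymphoid, erythroid and endocrine cells summed to at most 13.7 CPM in any tumour. Cells were placed by 4 gates on 9 marker genes (2000 CPM or more and 3 UMIs or more). The acinar gate (Ctrb1, Clps) held 459, 50 and 1849 cells, the ductal gate (Tff1, Lgals4) 463, 102 and 231, the Msln gate (Msln, Tm4sf1, F3) 21, 2 and 21, and the squamous gate (Krt5, Krt14) 1, 2 and 55. Sums of fewer than 20 cells entered no comparison. In the acinar gate the 10-gene acinar list summed to 19580, 12596 and 21831 CPM, and to 529, 780 and 554 in the ductal gate. That list includes the gate genes Ctrb1 and Clps, so the gate itself sets part of this contrast. Cells that passed several gates (176, 35 and 365) were left out of all 4 classes, and no doublet caller was run.

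Ribosomal protein mRNA made up a large share of all UMIs in every tumour. The share was 23.6% in tumour 1, 20.95% in tumour 2 and 21.6% in tumour 3, or 22.1% ± 1.40 (SD, n = 3). Core large-subunit genes gave 13.1%, 11.6% and 11.9% and core small-subunit genes 10.2%, 9.02% and 9.28%. The 9 other genes added 0.368%, 0.335% and 0.411%. In barcodes with 10 to 100 UMIs, which stand for RNA free in the droplets, the share was lower, at 16.6%, 15.6% and 17.6%. Without the 60% filter the shares were 23.2%, 19.6% and 21.6%.

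Core members spanned a 9.87-fold range of mean level, and 76 of 77 exceeded 1000 CPM. Counts came from a 3′ protocol, with about 1 tag per transcript, so levels are compared between genes without scaling for length. Rpl41, the shortest member, with a coding sequence of 75 bases, led at 7529, 5756 and 5317 CPM. The others of the leading 10 reported here were Rps12 (5294, 4789 and 4736), Rplp1, an acidic protein of the large-subunit stalk (5413, 4262 and 4455), and Rps24 (4303, 4784 and 4850). They also held Rps29 (5027, 4286 and 3558), Rpl23 (4286, 4081 and 4357), Rps20 (4457, 3779 and 4129), Rps2 (4532, 3887 and 3830) and Rpl13 (4340, 3795 and 4047). Rpl41 led in each tumour, while the tumour ranges of Rps12, Rplp1 and Rps24 overlapped, so their order was not resolved. Together the leading 10 genes held 20.9% of ribosomal protein UMIs. Rpl13a was the lowest core member, at 732, 666 and 487.

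**Figure D1:**
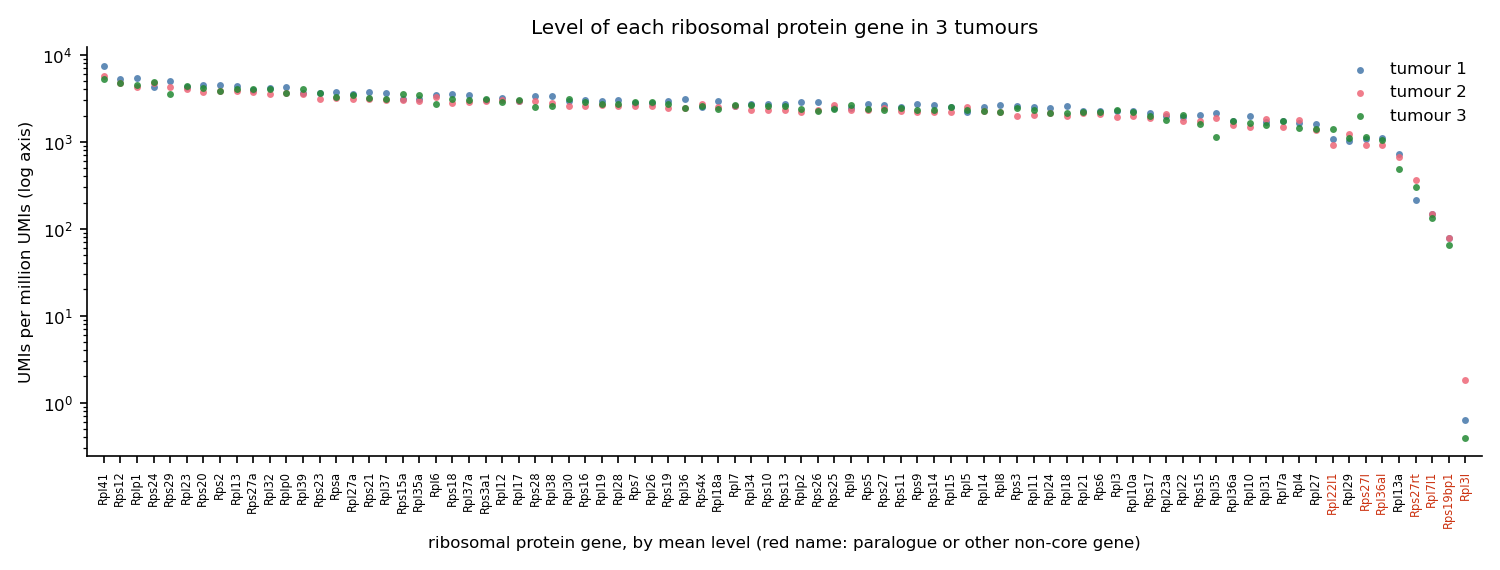
Level of 83 of the 84 ribosomal protein genes with any UMI in the kept cells, in CPM (log axis), ordered by mean. Each point is 1 tumour and red names are paralogues or other non-core genes. Core members form a flat shelf from Rpl41 to Rpl27 and Rpl29, and the steep end of the curve is made mostly of non-core genes.

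In the annotation (GENCODE vM21, GRCm38), members sat on 19 chromosomes. Rpl41 lies at chr10:128548114-128549305, Rps12 at chr10:23785183-23787275, Rplp1 at chr9:61913284-61914542 and Rps24 at chr14:24487125-24496959. UMIs count reads over a gene as the authors' pipeline assigned them, and the exon or 3′ UTR behind each UMI is not recorded in the tables.

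The order of core members was shared by the tumours: across the 77 genes, which are not independent replicates, Spearman's rho of log2 levels was 0.942 for tumours 1 and 2, 0.932 for 1 and 3 and 0.949 for 2 and 3. The median coefficient of variation of a core member over the tumours was 8.23%. Rpl35, a protein near the exit of the large subunit's peptide tunnel, varied most (30.6%), at 2157 and 1897 CPM in tumours 1 and 2 and 1137 in tumour 3. Rpl35 and Rpl13a (20.2%) were the 2 core members above 20%, named after their values were seen. Of genes outside the symbol rule, Fau, which encodes a small-subunit protein fused to a ubiquitin-like one, stood at 2855, 2318 and 2115, the scaffold protein Rack1 at 2099, 1922 and 1853, and the elongation factor Eef1a1 at 5947, 5769 and 5381. With 1 library per tumour and 1 group, differences between tumours have no test.

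Paralogues ranged from abundant to undetected in the kept cells. Rpl22l1, a paralogue of Rpl22, was at 1084, 925 and 1420 CPM, while Rpl22 was at 1915, 1728 and 2033. Rps27l, a paralogue of Rps27 known as a p53 target, was at 1068, 908 and 1133, and Rpl36al, paralogue of Rpl36a, at 1094, 928 and 1060. Coding sequences matched the parent gene over 67.5% of aligned bases for Rpl22l1, 76.2% for Rps27l and 87.7% for Rpl36al, and the longest run shared with the parent transcript was 26, 11 and 24 bases. Rpl7l1, a nucleolar assembly protein that resembles Rpl7 over only 54.4% of bases, was at 147, 146 and 134. Rps19bp1, a nucleolar protein that binds Rps19, was at 77.3, 78.7 and 65.0. Rpl3l, the paralogue used in heart and skeletal muscle, gave 6 UMIs in all. Rpl10l and Rpl39l, which are used in the male germ line, gave 0 UMIs in the kept cells. This allows up to 0.950, 5.49 and 0.395 CPM there in tumours 1, 2 and 3 by a limit of 3 counts per library. In RNA free in the droplets, Rpl39l was counted at 2.75, 5.71 and 3.79 CPM and Rpl10l at 0.393, 0 and 0.

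By gate, the ribosomal protein share was higher in ductal-gate than in acinar-gate cells in each of the 3 tumours. It was 22.8%, 20.6% and 21.3% in the acinar gate (21.6% ± 1.12, SD, n = 3) and 26.4%, 24.2% and 23.0% in the ductal gate (24.5% ± 1.70). Within a tumour, the ductal share was higher by 3.56, 3.61 and 1.68 percentage points (mean 2.95 ± 1.10, SD, n = 3), and both subunits moved alike, from 9.25% to 10.5% for the small and from 11.9% to 13.6% for the large subunit. Ribosomal RNA rich barcodes were 35.9%, 10.0% and 68.8% of acinar-gate cells and 10.2%, 13.7% and 0.866% of ductal-gate cells, a larger part of the acinar gate in tumours 1 and 3 but not in tumour 2. Without them the difference was 1.95, 4.84 and 0.361 points, and with each remaining cell also thinned to 1000 UMIs it was 1.87, 1.74 and 0.268 points. The direction held in each tumour, but in tumour 3 the remaining difference was small. With the mitochondrial and ribosomal RNA locus genes left out of the total, it was 2.22 and 4.41 points in tumours 1 and 2 and -0.596 in tumour 3. An exact two-sided paired permutation test over 3 tumours cannot give a p below 0.25, so none was run. The share was 23.9% in tumour 1 and 17.5% in tumour 3 in the Msln gate and 24.9% in the squamous gate of tumour 3. As an example of counting error, the exact 95% binomial interval of the smallest of these sums, the Msln gate of tumour 1, was 23.5% to 24.3%. Such intervals cover counting error only, not differences between cells or animals.

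**Figure D2:**
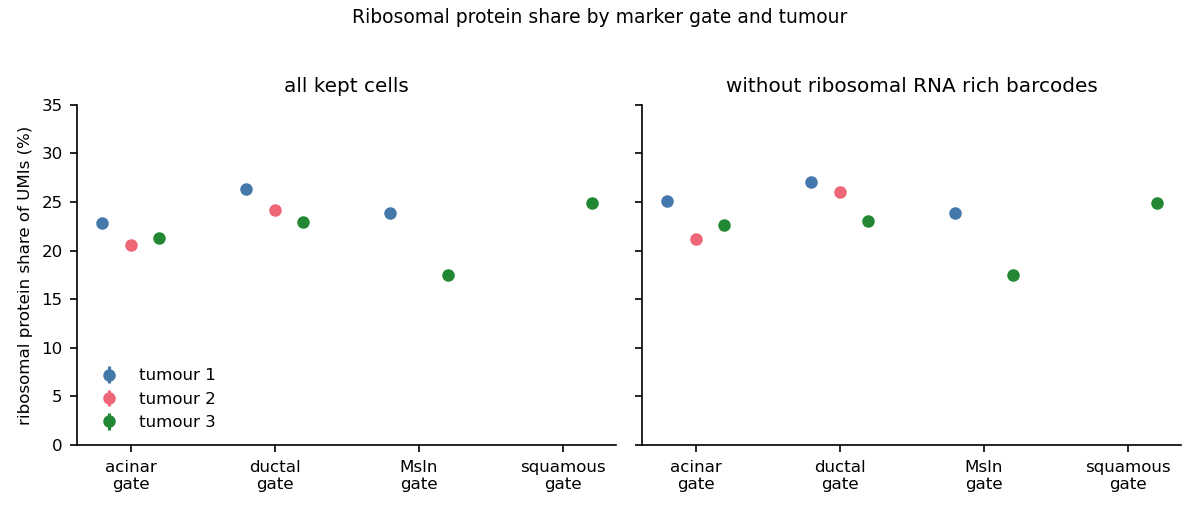
Ribosomal protein share of UMIs (percent) by marker gate, 1 point per tumour for sums of 20 or more cells, with all kept cells on the left and without ribosomal RNA rich barcodes on the right; exact 95% binomial intervals are smaller than or close to the symbols. The 3 ductal points lie above the acinar point of the same tumour in both panels, and the Msln point of tumour 3 is the lowest, at 17.5%.

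The share of a cell fell with its depth. In ribosomal RNA rich barcodes the median share per cell was 17.2%, 19.1% and 20.6% in tumours 1, 2 and 3, and in the other cells it was 28.5%, 25.4% and 28.3%. Among those other cells, the median share was 29.2%, 26.1% and 30.5% at 1000 to 2000 UMIs and 16.3%, 17.0% and 16.5% at 10000 UMIs or more, with 21, 5 and 114 cells in the deepest class. Mitochondrial share moved the other way, with medians of 3.00%, 3.26% and 2.84% in the shallow class and 9.51%, 9.38% and 9.92% in the deep class. The same fall was seen inside a gate: in acinar-gate cells of tumour 3 the median went from 30.7% to 16.3%, and in its ductal-gate cells from 30.6% to 16.6%. For correlations, each cell below the ribosomal RNA limit (1011, 203 and 1206 cells) was thinned to 1000 UMIs before its shares were taken. Spearman's rho between that share and the full UMIs of the cell was -0.270, -0.234 and -0.503. Small-subunit and large-subunit shares of a thinned cell went together (rho 0.743, 0.735 and 0.827), both being parts of the same total. Cells are not replicates, and whether depth, cell quality or cell state set the share was not tested.

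**Figure D3:**
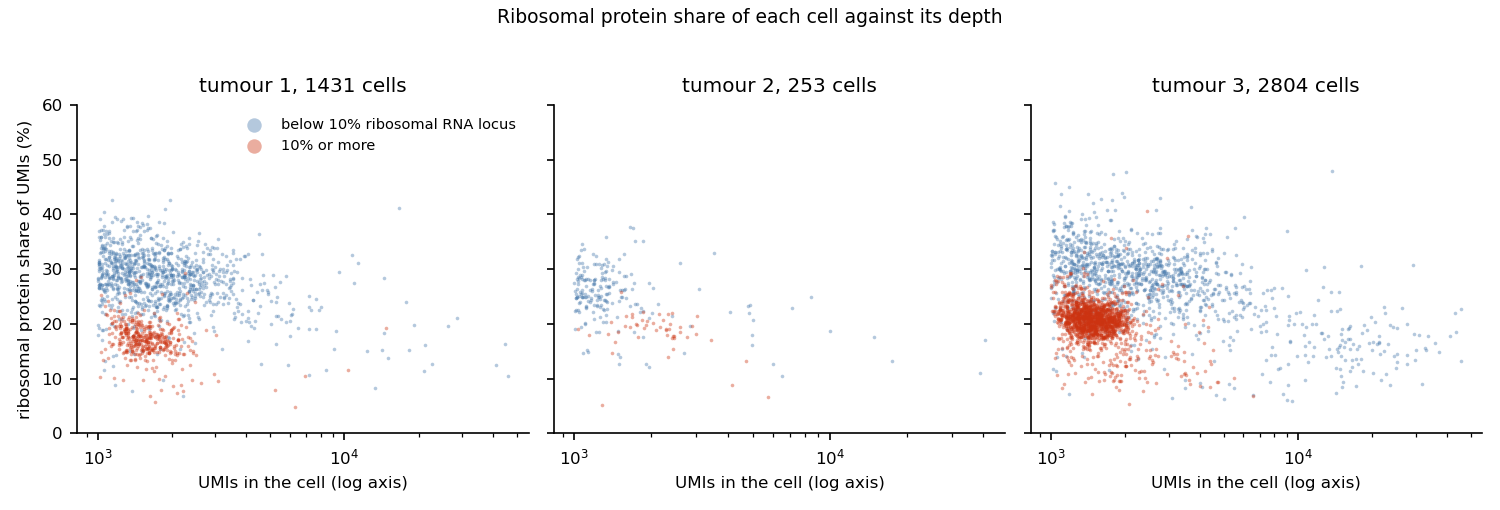
Ribosomal protein share of UMIs (percent) of each kept cell against the UMIs of the cell (log axis), 1 panel per tumour, coloured by whether 10% or more of the cell's UMIs were of the ribosomal RNA locus. Ribosomal RNA rich barcodes form a lower cloud with medians of 17.2%, 19.1% and 20.6%, and the remaining cells fall from medians of 29.2%, 26.1% and 30.5% at 1000 to 2000 UMIs to 16.3%, 17.0% and 16.5% at 10000 or more.

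The make-up of the set also differed between deep and shallow cells, in the same way in all 3 tumours. Deep cells were those of 5000 or more UMIs (55, 10 and 212 cells) and shallow cells those under 3000 (863, 185 and 789), both without ribosomal RNA rich barcodes; these classes were chosen after the data were seen and carry no test. Of 77 core members, 27 took a larger share of ribosomal protein UMIs in deep cells in every tumour, 41 took a smaller share in every tumour and 9 were mixed. Rpl39, a small protein lining the peptide exit tunnel, made up 1.21%, 1.26% and 1.26% of ribosomal protein UMIs in shallow cells and 2.77%, 2.70% and 2.79% in deep cells, a log2 ratio of 1.15 ± 0.05 (SD, n = 3). Rpl5, which binds 5S ribosomal RNA with Rpl11, went from 0.709%, 0.949% and 0.673% to 1.52%, 1.80% and 1.45% (1.04 ± 0.10). Rps4x (0.99 ± 0.04) and Rps24 (0.90 ± 0.20) also took a larger share. Rpl36 went the other way, from 1.48%, 1.41% and 1.39% to 0.856%, 0.719% and 0.727% (-0.90 ± 0.10), as did Rps14 (-0.84 ± 0.10) and Rplp1 (-0.74 ± 0.05). The ranges of shallow and deep cells did not overlap over the 3 tumours for Rpl39, Rpl5 or Rpl36. Within the acinar gate of tumour 3, Rpl39 went from 1.09% to 2.63% and Rpl36 from 1.43% to 0.757%, and within its ductal gate from 1.40% to 3.07% and from 1.40% to 0.661%. Among non-core members, Rpl22l1 had the largest ratio, 1.33 ± 0.12. These genes were named for the size of their shift, after it was seen.

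Base composition went with this shift. Over the 77 core members, Spearman's rho between the GC content of the coding sequence and the log2 ratio of deep to shallow share was -0.825, -0.737 and -0.846 in tumours 1, 2 and 3. In the 19 members of lowest GC (at most 49.7%) the median log2 ratio was 0.54, 0.54 and 0.56, and in the 19 of highest GC (at least 56.0%) it was -0.37, -0.41 and -0.40. With GC of the whole transcript the rho was -0.665, -0.602 and -0.679. Genes outside the set leaned the same way: over 4495, 1111 and 6135 other genes with 20 or more UMIs in both classes, rho was -0.496, -0.373 and -0.566. Transcript length went with the shift as well, with rho of 0.453, 0.439 and 0.492 over those other genes and 0.308, 0.393 and 0.275 over the 77 core members. The points share their libraries and cells, and genes are not independent, so these values are a description only. The coding sequences of the core members with the largest rise and the largest fall show the contrast. Rpl39 (chrX:37082520-37085402) is printed whole and Rpl36 (chr17:56613416-56614243) over its first 153 of 315 bases, from GENCODE transcripts, with capitals for G or C at the third position of each codon.
Rpl39: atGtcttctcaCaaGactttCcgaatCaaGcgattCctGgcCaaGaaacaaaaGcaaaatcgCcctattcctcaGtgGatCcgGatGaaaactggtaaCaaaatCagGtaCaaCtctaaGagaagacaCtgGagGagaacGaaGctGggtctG
Rpl36: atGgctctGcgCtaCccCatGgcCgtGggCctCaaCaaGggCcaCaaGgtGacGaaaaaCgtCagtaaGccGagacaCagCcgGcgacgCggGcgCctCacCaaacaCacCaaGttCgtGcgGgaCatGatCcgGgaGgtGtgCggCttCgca
In the 51 codons shown, the third base was G or C in 30 for Rpl39 and in 44 for Rpl36. GC content of the whole coding sequence was 45.1% for Rpl39 and 61.6% for Rpl36. RNA free in the droplets was closer to shallow than to deep cells in both genes: Rpl39 made up 1.26%, 1.16% and 1.21% of its ribosomal protein UMIs and Rpl36 1.76%, 1.47% and 1.95%. Whether free RNA, transcript chemistry or cell state set the shift was not tested.

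**Figure D4:**
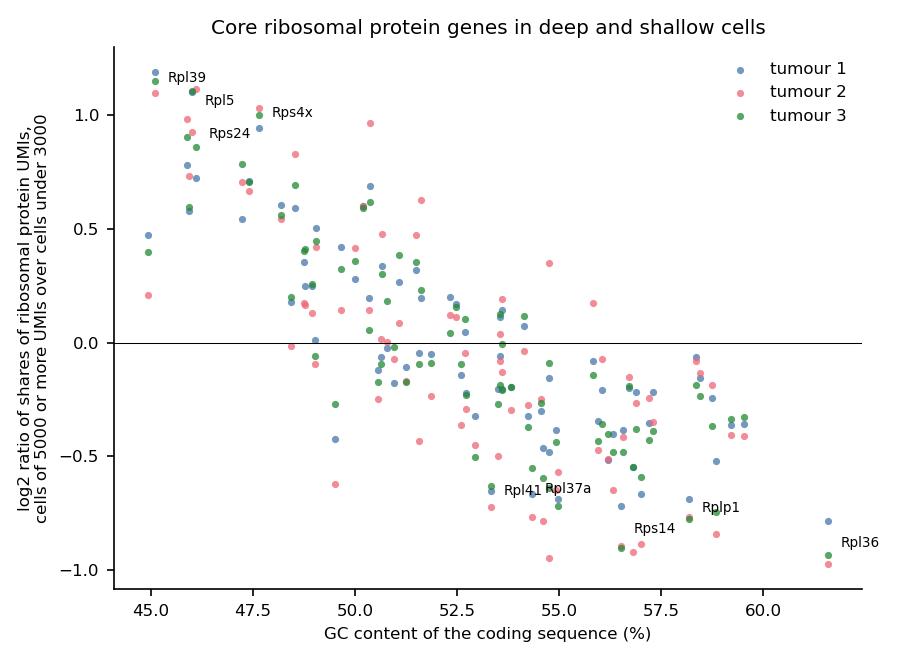
Log2 ratio of a core member's share of ribosomal protein UMIs in cells of 5000 or more UMIs over that in cells under 3000, against the GC content of its coding sequence (percent), 1 point per gene and tumour (77 genes). Points slope down from Rpl39 and Rpl5 to Rpl36, with rho of -0.825, -0.737 and -0.846 in tumours 1, 2 and 3.

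For the comparison of the ductal with the acinar gate, UMIs were summed per tumour and gate and tested with the quasi-likelihood test of edgeR in a model that blocks on tumour, and p-values were adjusted by Benjamini-Hochberg over all 6671 genes. Positive values mean higher in the ductal gate. Few ribosomal protein genes passed the test. Of the 83 members that passed the filter on low counts (all but Rpl3l, Rpl10l and Rpl39l), 0 were called higher and 1 was called lower, while 34.8% of genes were called (18.2% higher and 16.6% lower). At an unadjusted p under 0.05, 3 members were higher and 2 lower, and DESeq2 called 0 members, beside 16.4% of all genes. The log2 differences of members had a median of 0.15 and a middle range of 0.07 to 0.23, beside -0.01 and -0.44 to 0.46 over all genes, and 72 of 83 were positive. The median rested on single tumours: it was 0.05 without tumour 2, with 52 of 83 positive, and 0.31 without tumour 3. The median SE of a member was 0.19, so differences of the size seen in most members could not be resolved.

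The member called was Rpl7l1, which fell by 0.69 ± 0.19 (SE) on the log2 scale (adjusted p = 0.0030, edgeR). Its levels were 166, 202 and 149 CPM in the acinar gate and 135, 134 and 75.2 in the ductal gate of tumours 1, 2 and 3, lower in 3 of 3 tumours and without overlap. Without tumour 3 the difference was -0.34 and was not called, with tumour 1 or tumour 2 left out it remained called, and without the tumour block it was -0.62 and not called. Rps27l, the p53 target named above, had the next lowest value, -0.40 ± 0.18 (adjusted p = 0.072, edgeR), from 1286, 1302 and 1210 in the acinar gate to 962, 902 and 1050 in the ductal gate, again without overlap.

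Leaving out the ribosomal RNA rich barcodes gave 8 called members, 6 higher and 2 lower, where 36.1% of 6527 genes were called (19.1% higher and 17.0% lower). Those that rose were Rpl34 (0.48 ± 0.15, adjusted p = 0.010), Rps28 (0.47 ± 0.15, adjusted p = 0.011), Rps27 (0.42 ± 0.15), Rpl37a (0.40 ± 0.15), Rpl19 (0.39 ± 0.15) and Rpl39 (0.37 ± 0.15), all from edgeR. By CPM over all kept cells, each of them was higher in 3 of 3 tumours. Without ribosomal RNA rich barcodes, Rps28 stood at 3502, 2760 and 2571 CPM in the acinar gate and at 4247, 4838 and 2871 in the ductal gate. The groups overlapped between tumours. Rpl34 stood at 2652, 1830 and 2634 in the acinar and 3151, 3214 and 3065 in the ductal gate, without overlap. Those that fell were Rpl7l1 (-0.71 ± 0.20, adjusted p = 0.0031) and Rps27l (-0.45 ± 0.16, adjusted p = 0.019). None of the 6 higher calls was left when tumour 1 or tumour 2 was also taken out: 1 and 2 members were then called, each lower. Without tumour 2, Rpl34 was at 0.25 and Rps28 at 0.24. Without tumour 3, both were called higher and 0 members lower. The called shares, 9.64% of members here and 1.20% over all kept cells, both lie below the share of all genes.

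**Figure D5:**
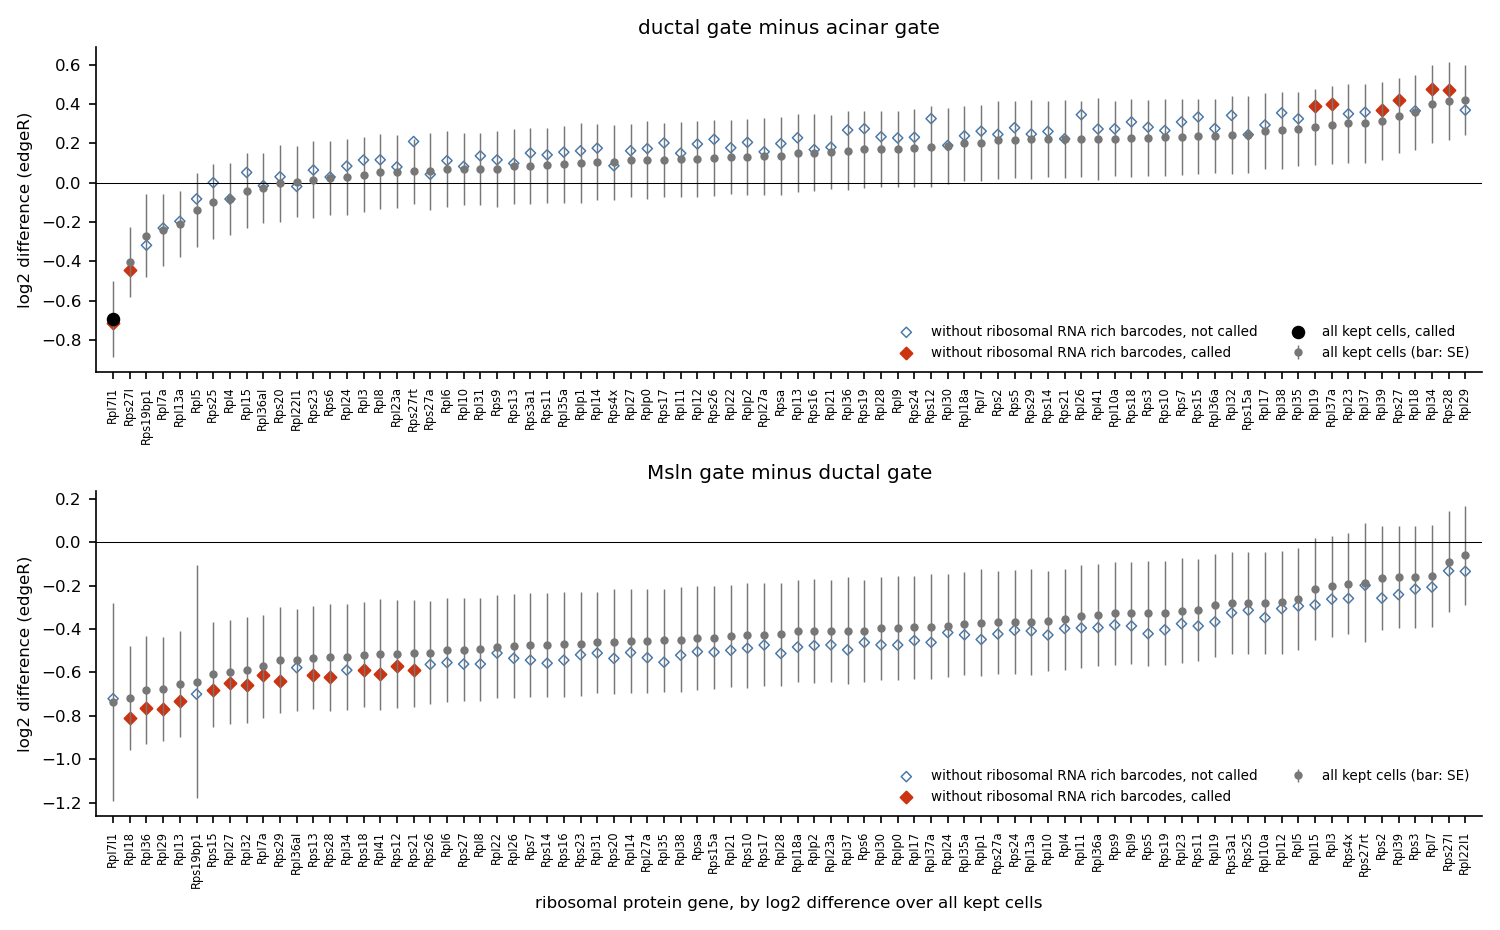
Log2 difference of 82 of the 83 tested members (edgeR) between the ductal and the acinar gate (top) and between the Msln and the ductal gate (bottom): grey points with SE bars for all kept cells, diamonds without ribosomal RNA rich barcodes, red where called at an adjusted p under 0.05 and black for the member called over all kept cells. In the top panel most values lie a little above 0 and Rpl7l1 lies apart; in the bottom panel all 82 grey points lie below 0.

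Calls over all kept cells could not single out a part of the ribosome in the ductal against the acinar gate. Over all kept cells, none of the 31 core small-subunit and 46 core large-subunit members was called, nor any of the stalk proteins Rplp0, Rplp1 and Rplp2, the 5S particle proteins Rpl5 and Rpl11, the tunnel proteins Rpl4, Rpl17 and Rpl39, the head and decoding proteins Rps3, Rps12, Rps15, Rps18 and Rps19, or the 9 genes mutated in Diamond-Blackfan anaemia, an inherited failure of red cell production. Median log2 differences were 0.12 for the stalk, -0.01 for the 5S particle, 0.26 for the tunnel proteins, 0.23 for the head and decoding proteins and 0.13 for the anaemia genes. Of the partners outside the rule, Fau was called higher (0.48 ± 0.20, adjusted p = 0.0499, edgeR), while Rack1 was at 0.22 ± 0.19 (adjusted p = 0.40). Without ribosomal RNA rich barcodes Fau was also called higher (adjusted p = 0.0064, edgeR). Eef1a1 was at 0.26 ± 0.20 (adjusted p = 0.34).

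Several genes that build ribosomes were lower in the ductal gate. In the list of 16 assembly and biogenesis genes, 11 were called lower in the ductal gate and 0 higher, beside 16.6% of all genes lower, with a median log2 difference of -0.76, and all 16 values were negative. The list was chosen with earlier results of these data known, and this count describes it without a test of the list. Ncl, which encodes the nucleolar protein nucleolin, stood at 3956, 5605 and 2385 CPM in the acinar gate and at 2410, 2353 and 1302 in the ductal gate. Npm1, a nucleolar chaperone of ribosome assembly, stood at 4870, 7294 and 4400 and at 3175, 2724 and 2588, without overlap between the gates, while for Ncl the acinar value of tumour 3 lay just below the ductal value of tumour 1. Nop58, a core protein of the particles that methylate ribosomal RNA, stood at 492, 613 and 347 and at 325, 288 and 213. Without ribosomal RNA rich barcodes 13 of 16 were called lower. Of translation initiation factors 8 of 27 were lower and 0 higher, and mitochondrial ribosomal protein genes had 16 of 77 lower and 2 higher. Among elongation factors 0 of 7 were higher and 2 lower. Of 7 tested genes that control translation of ribosomal protein mRNAs, Larp1 and Eif4ebp1 were lower and Eif4ebp2 was higher. The 4 genes of the ribosomal RNA locus list, Lars2 among them, were all lower in the ductal gate, and 0 of 4 were called without ribosomal RNA rich barcodes.

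The Msln gate held too few cells in tumour 2, so its comparison with the ductal gate rests on 21 cells each in tumours 1 and 3. Sums of the acinar, ductal and Msln gates were in 1 fit. The p-values of this comparison therefore use a spread shared with the acinar-gate sums, not that of tumours 1 and 3 alone. Every one of the 83 members had a negative log2 difference, with a median of -0.42, beside -0.09 over all genes. Over all kept cells 0 members were called, where 5.69% of genes were (3.57% higher and 2.12% lower). At an unadjusted p under 0.05, 22 members were lower and 0 higher, and DESeq2 called 0 members, beside 3.38% of all genes. Without ribosomal RNA rich barcodes, which were none of the Msln-gate cells, 15 of 83 members were called lower and 0 higher, where 6.2% of genes were called (3.02% lower and 3.19% higher). Among called members the largest falls were those of Rpl18 (-0.81 ± 0.19, adjusted p = 0.0026), Rpl29 (-0.77 ± 0.21, adjusted p = 0.013), Rpl36 (-0.76 ± 0.20, adjusted p = 0.0070), Rpl13 (-0.73 ± 0.18, adjusted p = 0.0053) and Rps15, a protein of the small subunit's head (-0.68 ± 0.20, adjusted p = 0.027), all by edgeR. Rpl32, Rpl27, Rps29, Rps28 and Rps13 followed at -0.66 to -0.61, and Rpl7a, Rpl41, Rps21, Rps18 and Rps12 at -0.61 to -0.57. Rpl18 went from 3204 and 2606 CPM in the ductal gate to 2311 and 1570 in the Msln gate of tumours 1 and 3, and Rpl13 from 5072 and 4335 to 3755 and 2752, without overlap for either gene. Rpl22l1 (-0.13 ± 0.20) and Rps27l (-0.13 ± 0.21) lay closest to 0.

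The difference was smaller in tumour 1 and changed sign there under some settings. The share of ribosomal protein UMIs differed (Msln minus ductal) by -2.46 points in tumour 1 and -5.51 in tumour 3, and after thinning to 1000 UMIs per cell without ribosomal RNA rich barcodes by -0.826 and -4.72 points. With thinning alone it was 0.279 points higher in the Msln gate of tumour 1 and -4.50 points in tumour 3. Without the 5% of cells with the most UMIs, only tumour 1 kept 20 cells and its share was higher in the Msln gate by 1.44 points. Shares of sums weigh deep cells most, and the gates lay closer in the median share per cell. Over all kept cells that median averaged 26.9% in the Msln gate (tumours 1 and 3) and 27.5% in the ductal gate (3 tumours). The mean shares of the sums were 20.7% and 24.5%. With tumour 2 left out as well as the ribosomal RNA rich barcodes, 13 members were called, and with tumour 1 or tumour 3 left out, 0 were. Mitochondrial share in the Msln gate was 6.57% and 9.23%, against 5.24% and 8.68% in the ductal gate. The myeloid marker list summed to 57.8 and 48.6 CPM there and to 13.0 and 12.1 in the ductal gate. Malat1, a nuclear RNA, stood at 29538 and 42204 CPM in the Msln gate and at 3479 and 8379 in the ductal gate. Among the members called without ribosomal RNA rich barcodes, Rpl18, Rpl36 and Rpl13 had coding sequences of high GC content (59.2%, 61.6% and 58.5%). Over the 77 core members, rho between GC and the log2 difference was -0.409 without those barcodes and -0.368 over all kept cells. For the ductal against the acinar gate it was 0.213 and 0.151. The part of depth, nuclear RNA, other cells and base composition in the lower levels was not tested. In this comparison Rack1 was at -0.50 ± 0.24 (adjusted p = 0.24, edgeR), Fau at -0.39 ± 0.24 (adjusted p = 0.42) and Eef1a1 at -0.38 ± 0.24 (adjusted p = 0.45), and 0 of 16 assembly genes were called, with a median of -0.44.

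The squamous gate could be described in tumour 3 only, with 55 cells and no test. Its ribosomal protein share of 24.9% lay above the 21.3% of the acinar gate, the 23.0% of the ductal gate and the 17.5% of the Msln gate of that tumour. The median share of its cells was 30.5%, beside 28.8% for the ductal gate and 25.1% for the Msln gate, at median depths of 2378, 1936 and 2086 UMIs. Its 8-gene squamous list summed to 12068 CPM, against at most 356 in the acinar, ductal and Msln gates of that tumour. This list includes the gate genes Krt5 and Krt14, so the gate itself sets part of the contrast.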

How the data were processed

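The authors deposited unnormalized UMI counts, whole numbers for each gene in each barcode, which came from Cell Ranger 3.0.2 according to the matrix headers. The submitters' processing notes list Cell Ranger 3, Seurat 3.1 and mm10, and the protocols mention kits of Version 1 as well as Version 3. Barcode and feature lists came with each matrix, and no cell calling had been applied to the 6794880 listed barcodes. Levels are CPM of a sum, as computed here. Sums of 20 or more cells per tumour and gate were fitted with edgeR 4.0.16 (filterByExpr, TMM, quasi-likelihood test, tumour as block, adjusted p under 0.05), leaving 3 residual degrees of freedom; DESeq2 1.42.0 was an alternative. The fit was tested on simulated data. Same-tumour sums come from the same animal, which pairs them; their deviations correlated at 0.115, 0.0511 and 0.281. Nothing states how tumours relate to donors beyond separate samples, so p-values hold for these samples only. With tumour as a block, they rest on how gate differences vary between tumours, in 1 fit shared by the acinar, ductal and Msln gates.

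Members, gates and lists were chosen with earlier results of these data known. Named genes are the 10 members of highest mean level, each non-core member with 3 or more UMIs, the called members with the largest changes, and Fau, Rack1 and Eef1a1; others are said to be named after their values were seen. Some genes are not reported here by name or plotted by name. Marker lists give sums only. Sequences are from RefSeq (GRCm38.p6) and GENCODE vM21. Settings were varied one at a time, except that leaving out ribosomal RNA rich barcodes was also combined with thinning and with leaving out a tumour; leaving out ribosomal RNA rich barcodes and thinning were added after the data were examined.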

Additional observations from a re-analysis of the deposited data

How the results depend on the processing

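The number of members called in the ductal against the acinar gate was 1 as reported. It was 3 (1 higher) and 2 (0 higher) with gate limits of 1000 and 4000 CPM, 4 (3 higher) without the 60% filter, 13 (12 higher) without the 5% of cells with the most UMIs, 8 (6 higher) without ribosomal RNA rich barcodes, 2 (1 higher) after thinning, 13 (11 higher) with both, 4 (3 higher) with library sizes without TMM, 3 (1 higher) with mitochondrial and ribosomal RNA locus genes out of the library size, 2 (1 higher) with sums of 50 or more cells, 0 with DESeq2, and 0 without the tumour block. Leaving out 1 tumour gave 0 to 1, and 1 to 2 together with the ribosomal RNA rich barcodes. In each setting the share of members called, at most 15.7%, was below that of all genes in the same setting. The share of all genes ran from 15.3% without the filter on low counts to 38.7% without the 60% filter. For the Msln against the ductal gate the count was 0 as reported. It was 5 with the gate at 1000, 4 without the 60% filter, 15 without ribosomal RNA rich barcodes, 3 after thinning, 17 with both, 1 with scaling from other genes, 2 without mitochondrial and ribosomal RNA locus genes, and 3 without the filter on low counts. As shares of members these were 6.02%, 4.82%, 18.1%, 3.61%, 20.5%, 1.2%, 2.41% and 3.57%. Of all genes, 5.27%, 7.02%, 6.2%, 3.6%, 3.94%, 5.81%, 5.94% and 2% were called in the same settings. Leaving out 1 tumour gave 0 to 4, and 0 to 13 together with the ribosomal RNA rich barcodes. The 13 called without tumour 2 and those barcodes were 15.7% of members, beside 5.7% of all genes. Each call in that comparison was lower. The block ended no call there, where 0 members were called with and without it. Assembly genes called lower numbered 11, with 7 for DESeq2, 7 without the tumour block and 7 to 13 without 1 tumour (6 to 12 with the ribosomal RNA rich barcodes also out). The mean ductal minus acinar share was 2.95 points and 1.29 without ribosomal RNA rich barcodes and with thinning. The mean Msln minus ductal share was -3.99 points over tumours 1 and 3. In that comparison tumour 1 was at -2.46 points, and it alone remained, at 1.44 points, without the deepest 5% of cells. The mean share over tumours, 22.1%, was 24.1% without those cells, 24.0% after thinning, 26.8% after thinning without ribosomal RNA rich barcodes and 25.8% with those genes out of the total, and the mean of the tumours' median member levels, 2532 CPM, was 2804, 2794, 3108 and 2956. The fall of Rpl7l1 kept its direction under each alternative and lost its call with DESeq2 (adjusted p = 0.11), without the tumour block (adjusted p = 0.078, edgeR) and without tumour 3 (adjusted p = 0.34, edgeR). Sums of 50 cells and the gate at 4000 left the Msln gate without a comparison. The cause of these changes was not tested.

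Depth was limited: tumour 2 had 253 cells, 3 residual degrees of freedom carried the fit, and the labels do not say which tumour was which histological type.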

Other observations

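Of 9 gene symbols that carry -ps and were left out by the rule, Rpl10-ps3 had the most UMIs, at 213, 326 and 209 CPM in tumours 1, 2 and 3. Rpl36a-ps1 stood at 72.2, 97.0 and 118. Rpl36-ps4 and Rpl9-ps1 had 0 UMIs. Such copies can share reads with the parent gene, so these values are uncertain.

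Differences in make-up between tumours also went with base composition. Over the 77 core members without ribosomal RNA rich barcodes, rho between GC content of the coding sequence and the log2 ratio of tumour 3 to tumour 1 was -0.706, and for tumour 2 to tumour 1 it was -0.598. Both ratios share tumour 1. What set this relation was not tested. Rpl35 had the lowest ratio of tumour 3 to tumour 1 among core members (log2 -0.84), followed by Rpl13a at -0.49.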
